A study of Mus musculus with 6 samples.

Results

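The genes described here encode the parts of the Wnt signalling pathway: its ligands, the proteins that release them, their receptors, the secreted and membrane proteins that limit or strengthen the signal, and the factors that carry it to the nucleus. They were chosen by symbol, but with earlier results of these data known, so the choice was not blind to the data. The chosen symbols matched 66 of the 23358 rows of the gene table. RNA sequencing was done on mesenchymal stem cells of C57BL/6 bone marrow, adherent stromal cells able to become bone, cartilage or fat cells. At passage 6 to 12 they received a non-targeting control siRNA (3 libraries) or an siRNA of 1 sequence against Dia2 at 50 nM (3 libraries). RNA was taken 24 h after the transfection medium had been exchanged. Dia2 is the formin encoded by Diaph3, a protein that builds straight actin filaments. The labels leave unstated if separate cultures were used for the 3 libraries of each group. All p-values therefore rest on the spread of libraries alone, and that spread may be technical.

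Wnt ligands are secreted lipid-modified glycoproteins. On the receiving cell they bind a Frizzled receptor together with Lrp5 or Lrp6, which stops the Axin and Apc complex from marking beta-catenin (Ctnnb1) for destruction, so that beta-catenin reaches Tcf and Lef factors on DNA. Other ligands signal through Ror2, Ryk and Frizzled without beta-catenin. R-spondins bound to Lgr4, Lgr5 or Lgr6 keep the ubiquitin ligases Znrf3 and Rnf43 from removing Frizzled. In bone marrow stroma the pathway is known for favouring bone-forming over fat-forming fates.

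Total counts ranged from 70538768 to 110006338 per library, and every count was even, as if each fragment had been counted as 2. The Wnt genes together held 0.268% to 0.278% of the counts in the control libraries and 0.38% to 0.398% in the Dia2 libraries. Levels are given as CPM (counts as a share of the library total, on the usual counts-per-million scale with TMM factors) when 1 gene is compared between libraries, and as RPKM (CPM per kilobase of the deposited coding length) when genes are compared with each other. A floor of 6 counts, or 3 fragments, corresponds to 0.0545 to 0.0851 CPM and covers counting error only. Adjusted p-values come from edgeR's quasi-likelihood test over all genes tested, with a threshold of 0.05. The knockdown was present in the libraries labelled with it: Diaph3, listed under its older symbol Diap3, had 80.1 to 84.8 CPM in the control libraries and 7.39 to 8.37 CPM in the Dia2 libraries. The ribosomal RNA precursor Rn45s took 11.7% of the counts in control replicate 3 and 10.9% in Dia2 replicate 1, against 6.0% to 7.41% in the other libraries.

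Most of the Wnt genes that could be measured were higher with Dia2 siRNA. Of the 66 genes 51 had enough counts to be tested, and of these 32 rose, 3 fell and 16 did not pass the threshold. Among all 14151 genes tested 29.3% were called higher, 29.9% lower and 59.2% in either direction. The median log2 fold change was 0.66 over the 51 Wnt genes and 0.01 over all genes tested. Changes of at least 2-fold were called upward for 13 Wnt genes (5.82% of all genes tested) and downward for 1 (2.76% of all genes tested). The values of the 3 Dia2 libraries all lay on 1 side of the control values for 42 of the 51. The same held for 9139 of all 14151 genes tested. In RNA from whole cultures, more RNA per cell and more cells of an expressing type cannot be told apart.

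**Figure D1:**
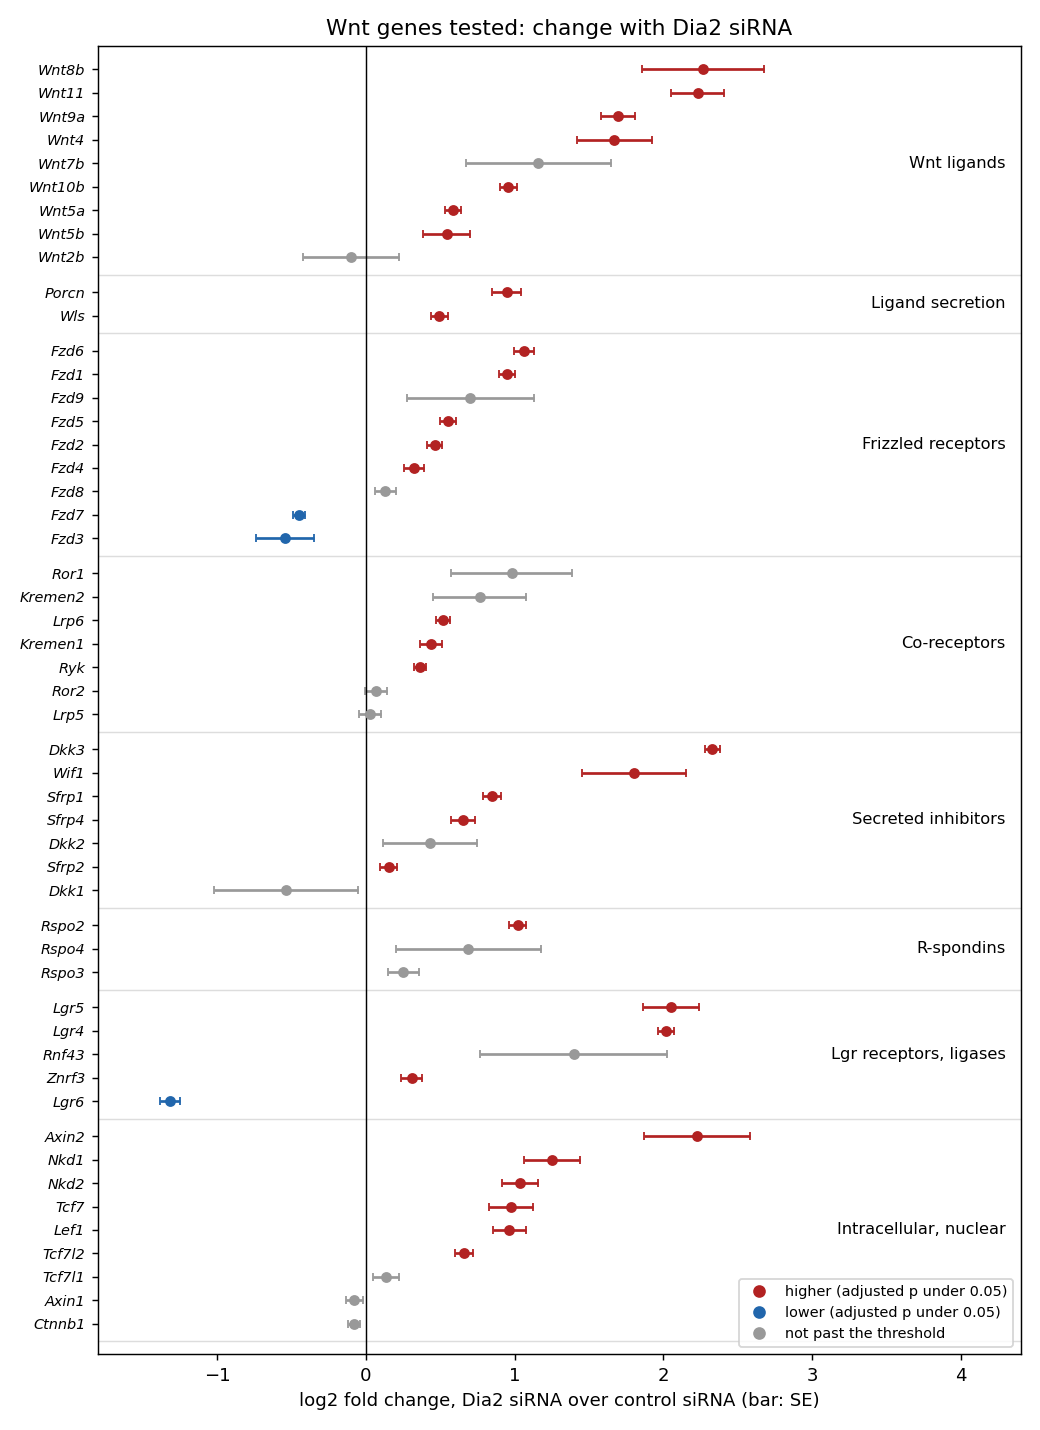
Each point is the log2 fold change (Dia2 siRNA over control siRNA, x axis) of 1 of the 51 Wnt genes tested, with its SE as a bar, grouped by role. Red points were called higher (32), blue points lower (3) and grey points were not past the threshold (16), and the blue points are Lgr6, Fzd3 and Fzd7.

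The cells carried the marks of a stromal culture, and these marks moved as well. Of 11 mesenchymal stromal markers 9 of the 10 tested rose (29.3% of all genes tested), and Lepr (1.31 and 1.45 CPM) did not pass. The summed level of the 11 was 1861 to 2182 CPM in the control and 3856 to 4003 CPM in the Dia2 libraries. Cxcl12 alone made up 815 and 2097 CPM of the group means. Thy1, often used to define such cells, was not tested, with at most 10 counts in any library. Blood and macrophage markers summed to 11.2 to 12.4 CPM in the control and 6.09 to 8.12 CPM in the Dia2 libraries. Of these 10 genes 3 fell (Cd53, Itgb2 and Cd68). Lyz2 (0.779 and 1.09 CPM) and Csf1r (2.92 and 3.00 CPM) had higher means with Dia2 siRNA and did not pass. Another 5 were too scarce to test, with Tyrobp and Hba-a1 at 0 in all libraries and Ptprc at no more than 8 counts. The sum of 6 endothelial markers was 2.06 to 2.17 against 1.75 to 2.2 CPM. Of the 4 tested, Kdr fell from 1.15 to 0.646 CPM, Vwf rose from 0.716 to 1.13 CPM and 2 did not pass. Osteoblast markers summed to 50.8 to 56.7 CPM in the control and 109 to 111 CPM in the Dia2 libraries, and 3 of the 4 tested rose; Runx2 alone made up 49.7 and 101 CPM of the group means. Adipocyte markers summed to 136 to 138 and 82.1 to 83.1 CPM. Pparg and Fabp4, which held nearly all of that sum, fell, whereas Adipoq (2.49 and 3.02 CPM) and Plin1 (0.178 and 0.258 CPM) had higher means with Dia2 siRNA and did not pass. The part of these shifts in the Wnt results was not tested.

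Fold changes in these 6 libraries differed between genes with and without certain 7-base words in the 3′ UTR. The word GCAGTAC was found in 6.18% of 13181 tested genes with an annotated 3′ UTR, and 49.8% of its carriers were called higher. TATGTGA or ATGTGAA was found in 24.5%, and 39.4% of those carriers were called lower, against 29.3% of the genes with none of the 3 words. The words had been picked from fold changes of these same libraries, so these shares are descriptions. Below are the stretches of the Wnt gene with the largest tested rise and of the 3 genes that fell, from GENCODE M21 transcripts (GRCm38), 5′ to 3′ on the gene's own strand, with the word in capitals.

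Dkk3 (chr7:112118060-112118089, minus strand): caaggtacagtGCAGTACatttcttccagc
Fzd7 (chr1:59486759-59486788, plus strand): tctttaagtgcATGTGAAatttgtaaaata
Fzd3 (chr14:65201433-65201462, minus strand): gaaaatgctaaTATGTGAttcagaaaatat
Fzd3 (chr14:65193992-65194021, minus strand): ctcttctaagcATGTGAAattgctgtcttg
Lgr6 (chr1:134983351-134983380, minus strand): caaccccagccATGTGAActataacaattg

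All 3 Wnt genes that fell were among the 16 tested ones with TATGTGA or ATGTGAA in an annotated 3′ UTR, of which 9 rose. The Lgr6 stretch lies outside the gene model of the deposited table, in a longer annotated transcript. Dkk3 was the only Wnt gene with GCAGTAC. Among the next largest rises, Wnt8b, Axin2 and Lgr5 (log2 fold change 2.26, 2.23 and 2.05) carry none of the words. Wnt11 (2.23) carries TATGTGA and Lgr4 (2.02) ATGTGAA, although both rose. Of the 34 tested Wnt genes with none of the words 22 rose and none fell, with a median log2 fold change of 0.70, against 30.1% higher and 29.3% lower and a median of 0.01 among all 9463 such genes. A 7-base match to the seed of the siRNA, the part that can pair with other RNAs, was also found in all 3 that fell. Fzd5, Fzd6, Lgr4, Lgr5, Wnt4, Wnt10b, Tcf7 and Sfrp4, which rose, held it too. So did Dkk1, Dkk2 and Lrp5, which did not pass. The share of all genes tested that hold this seed match was not counted, so these numbers have no background. With 1 siRNA sequence, loss of Dia2 and action on other RNAs cannot be told apart. Whether these words or the seed match took part in any change was not tested.

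**Figure D2:**
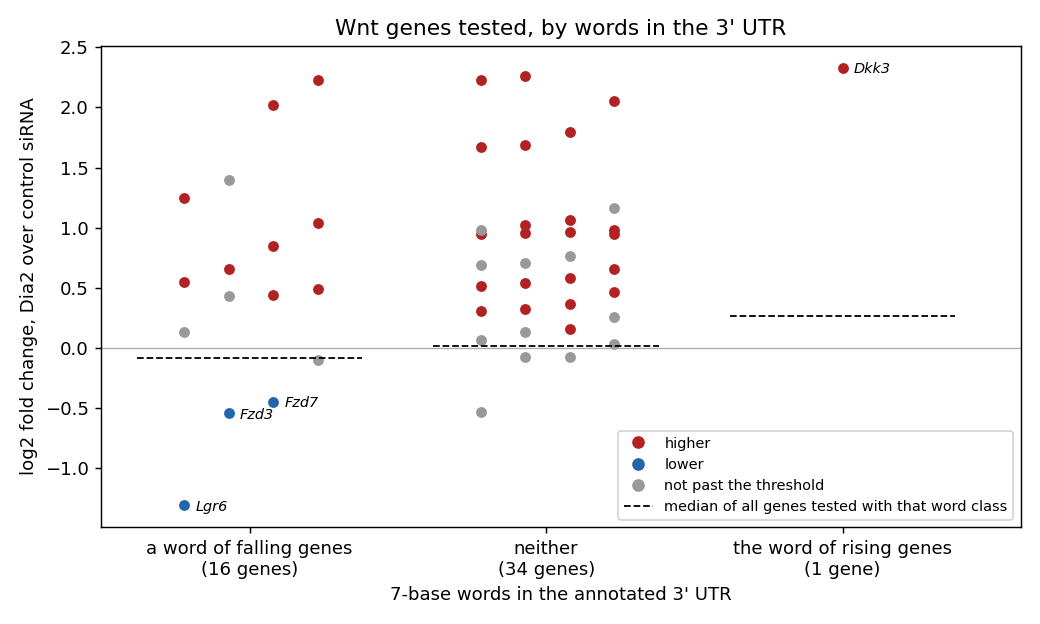
The y axis is the log2 fold change (Dia2 over control siRNA) of the 51 tested Wnt genes, split on the x axis by the words in their annotated 3′ UTRs. Dashed lines are the medians of all tested genes of that class; the 3 genes that fell lie in the class of 16 with a word of falling genes, and most of the 34 genes with neither kind of word lie above their dashed line.

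Among the ligands, 9 of 19 Wnt genes were tested, and 7 rose and none fell. Per length, Wnt5a was the leading ligand in both groups, at 13.6 ± 0.749 RPKM in the control and 20.3 ± 0.797 RPKM in the Dia2 libraries (SD, n = 3 each), followed by Wnt10b at 4.84 ± 0.151 and 9.4 ± 0.231 RPKM. These 2 genes held 66.6% and 23.8% of the summed ligand RPKM in the control and 59.2% and 27.3% with Dia2 siRNA. All other ligands stood below 2 RPKM in either group.

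Wnt5a, a ligand known mainly for signalling without beta-catenin, had 58.1, 56.8 and 63 CPM in the control and 92, 85.2 and 89.7 CPM in the Dia2 libraries. The groups did not overlap, and the rise was 1.5-fold (log2 fold change 0.58 ± 0.05 SE, adjusted p = 1.71e-06). Wnt10b, a beta-catenin ligand known for restraining fat cell formation in marrow, had 10.4, 11.1 and 10.8 CPM against 20.3, 21.2 and 21.2 CPM. It was higher in every Dia2 library, by 1.94-fold (0.96 ± 0.06, adjusted p = 6.54e-08). Its neighbour on chromosome 15, Wnt1, lies 11.7 kb away with no other row of the table between them and had 0 to 12 counts per library.

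The larger fold changes of ligands were found among scarce ones. Wnt9a had 1.9, 1.73 and 2.15 CPM in the control and 6.06, 6.73 and 5.83 CPM in the Dia2 libraries, a 3.23-fold rise (log2 fold change 1.69 ± 0.11, adjusted p = 1.5e-07). Wnt3a, which lies 16.2 kb from Wnt9a on chromosome 11, had no count in any library. Wnt11, known from cell movements in the embryo, had 0.409, 0.414 and 0.435 CPM against 1.91, 1.96 and 2.03 CPM, so that the lowest Dia2 value was several times the highest control value (4.69-fold, 2.23 ± 0.18, adjusted p = 6.34e-07). Wnt4 had 0.552, 0.365 and 0.783 CPM against 1.54, 1.67 and 2.14 CPM (3.18-fold, 1.67 ± 0.25, adjusted p = 0.000121), on 30 to 62 counts per control library.

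Wnt8b rested on very few fragments, with 8, 8 and 6 counts with control siRNA against 20, 46 and 44 with Dia2 siRNA (log2 fold change 2.26 ± 0.41, adjusted p = 0.000477). Wnt5b rose 1.46-fold (0.54 ± 0.16, adjusted p = 0.0108), a call that was lost without Dia2 replicate 3 (0.39, adjusted p = 0.0694). Wnt2b (-0.10 ± 0.32) and Wnt7b (1.16 ± 0.49) did not pass, with adjusted p = 0.811 and 0.0582. Wnt2b spread from 0.478 to 1.45 CPM within the Dia2 group alone, a range that enclosed all 3 control values. The other 10 ligands, Wnt1, Wnt2, Wnt3, Wnt3a, Wnt6, Wnt7a, Wnt8a, Wnt9b, Wnt10a and Wnt16, were too scarce to test. Among them Wnt16 had 2, 0 and 0 counts with control siRNA against 12, 8 and 14 with Dia2 siRNA, and Wnt3a and Wnt9b had none.

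**Figure D3:**
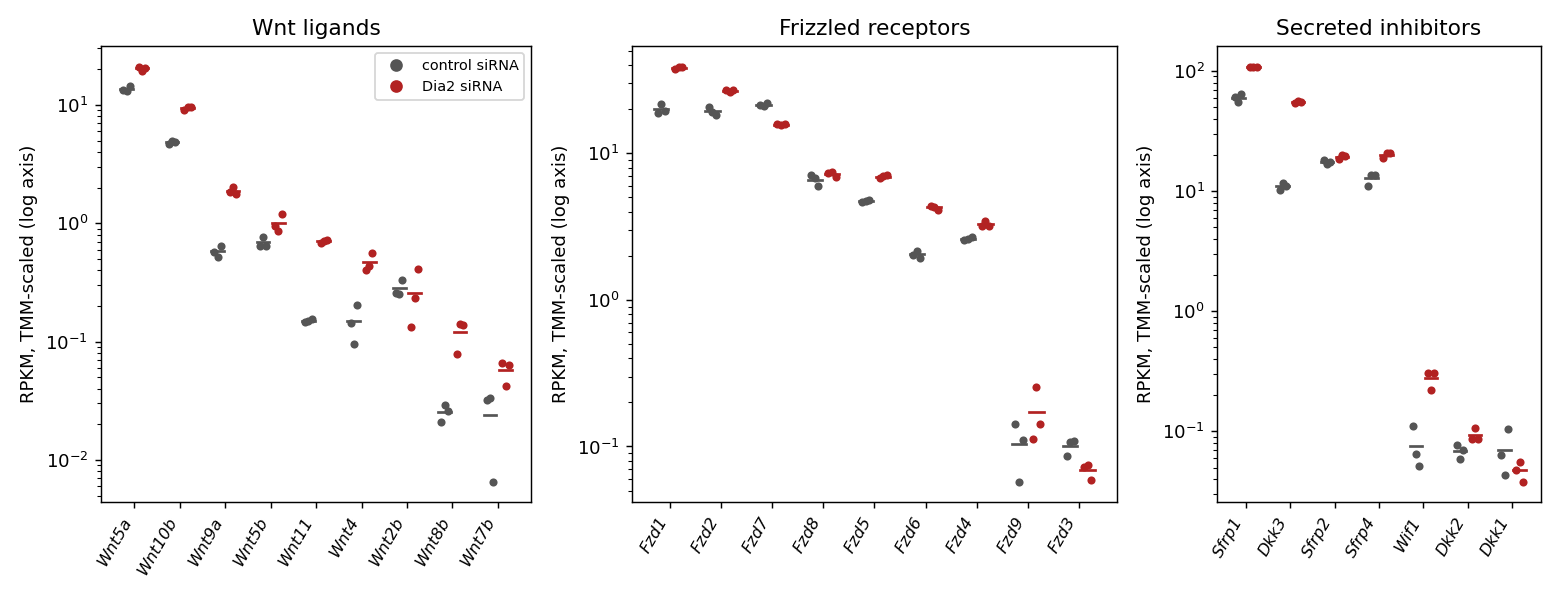
RPKM (y axis, log scale) of the tested ligands, Frizzled receptors and secreted inhibitors in each library, with control siRNA in grey, Dia2 siRNA in red and a line at each group's mean of 3 libraries. Wnt5a and Wnt10b stand above the other ligands, Fzd1 passes Fzd7 with Dia2 siRNA, and Dkk3 rises to the second place among the inhibitors.

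Both genes needed to release Wnt ligands rose. Porcn, which attaches the lipid, had 3.33, 3.07 and 3.19 CPM in the control and 5.85, 6.02 and 6.62 CPM in the Dia2 libraries (1.93-fold, log2 fold change 0.95 ± 0.10, adjusted p = 4.45e-06). Wls, the carrier that takes the ligand to the cell surface, had 219, 229 and 253 CPM against 337, 329 and 320 CPM (1.41-fold, 0.49 ± 0.06, adjusted p = 1.15e-05). Neither gene's groups overlapped.

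The Frizzled receptors changed in both directions, and their order by level changed with them. Of 10 genes 9 were tested, of which 5 rose, 2 fell and 2 did not pass. In the control libraries Fzd7 (21.5 ± 0.393 RPKM), Fzd1 (19.9 ± 1.47 RPKM) and Fzd2 (19.4 ± 1.17 RPKM) stood close together, and the libraries of Fzd1 overlapped those of both others. In the Dia2 libraries they stood apart, with Fzd1 at 38.4 ± 0.834, Fzd2 at 26.8 ± 0.423 and Fzd7 at 15.7 ± 0.194 RPKM (SD, n = 3 each). Fzd1 held 25.9% of the summed Frizzled RPKM in the control and 37.3% in the Dia2 libraries, and Fzd7 27.9% and 15.3%.

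Fzd1 had 82, 94.4 and 85.4 CPM in the control and 164, 171 and 170 CPM in the Dia2 libraries, a 1.93-fold rise (log2 fold change 0.95 ± 0.05, adjusted p = 4.26e-08). Fzd7, with ATGTGAA in its 3′ UTR, had 103, 102 and 105 CPM against 76, 74.6 and 76.4 CPM, a 1.37-fold fall (-0.45 ± 0.04, adjusted p = 2.15e-06). Both sets of values were tight, and neither gene's groups overlapped.

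Fzd6 had 8.44, 8.96 and 7.95 CPM in the control and 18.2, 17.8 and 17.1 CPM in the Dia2 libraries (2.09-fold, log2 fold change 1.06 ± 0.07, adjusted p = 8.49e-08). Fzd5, Fzd2 and Fzd4 rose by 1.47-, 1.38- and 1.25-fold, and the Fzd5 3′ UTR holds ATGTGAA at 2 places. Fzd3 had 1.1, 1.36 and 1.39 CPM against 0.93, 0.958 and 0.748 CPM, and its fall (-0.54 ± 0.20, adjusted p = 0.0303) was lost without control replicate 2 or 3 or Dia2 replicate 3 (log2 fold change -0.50 to -0.44, adjusted p = 0.0728 to 0.105). Fzd8 (0.13 ± 0.07) and Fzd9 (0.70 ± 0.43) did not pass, with adjusted p = 0.125 and 0.176, and Fzd10 had 2 counts in 1 library.

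A group of 7 tested genes held the receptors that act beside or in place of Frizzled, and also Kremen1 and Kremen2, which act against Lrp6. Of the 7, Lrp6, Ryk and Kremen1 rose and none fell. That is 42.9% called higher, against 29.3% of all genes tested. Lrp6, a co-receptor of the beta-catenin branch, had 200, 211 and 218 CPM in the control and 300, 306 and 293 CPM in the Dia2 libraries (1.43-fold, log2 fold change 0.52 ± 0.05, adjusted p = 1.93e-06). Lrp5, its close relative, had 44.3, 44.4 and 36.6 CPM against 42.2, 43.8 and 41.9 CPM, so that the groups overlapped (0.03 ± 0.07, adjusted p = 0.757). Per length, Lrp6 stood at 22.4 ± 1 RPKM and Lrp5 at 8.07 ± 0.866 RPKM in the control libraries.

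Ryk, a receptor with a Wnt-binding domain, rose 1.29-fold and was the most abundant of this group at 45.2 ± 0.367 and 58.3 ± 0.752 RPKM. Kremen1, which takes Lrp6 off the surface together with Dkk proteins, rose 1.36-fold from 35.8 ± 3.79 to 48.5 ± 1.9 CPM (0.44 ± 0.07, adjusted p = 0.000252). Ror2, a receptor for Wnt5a, had 8.4, 9.35 and 8.5 CPM against 9.22, 9.2 and 9.06 CPM, with overlapping groups (0.07 ± 0.07, adjusted p = 0.456). Ror1 (0.98 ± 0.41, adjusted p = 0.055) and Kremen2 (0.76 ± 0.31, adjusted p = 0.053) were below 1 CPM and did not pass. Kremen2 passed without control replicate 1 (1.04, adjusted p = 0.0319) or Dia2 replicate 2 (0.96, adjusted p = 0.0299), and Ror1 without Dia2 replicate 3 (1.20, adjusted p = 0.0391). Kremen2 shares 200 exon bases with 9530082P21Rik on the opposite strand, which had 11416 counts in all, and without a stated strand setting their reads cannot be told apart.

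The genes grouped as secreted inhibitors, most of which bind the ligand or its receptors outside the cell, gave a summed rise of 2.05-fold. Their summed level went from 357 ± 21.3 to 733 ± 8.66 CPM (SD, n = 3 each), and of 7 genes tested 5 rose and none fell. Dkk3, for which such binding is not firmly known, made up 36.8 and 185 CPM of these means. Sfrp1, a decoy that binds Wnt through a Frizzled-like domain, was the most abundant at 60 ± 4.94 and 108 ± 0.529 RPKM. In CPM it had 264, 240 and 283 with control siRNA against 470, 473 and 474 with Dia2 siRNA (1.8-fold, log2 fold change 0.85 ± 0.06, adjusted p = 1.63e-07).

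Dkk3 had 34.4, 38.9 and 37.3 CPM in the control and 181, 188 and 185 CPM in the Dia2 libraries, a 5.03-fold rise with groups far apart (2.33 ± 0.05, adjusted p = 2.68e-11). It belongs to the Dickkopf family by sequence but, unlike Dkk1, is not known as a firm ligand of Lrp6. It held 10.8% of the summed inhibitor RPKM in the control and 27.1% with Dia2 siRNA, and carries the GCAGTAC stretch shown above. The Dkk genes with a known action on Lrp6 were scarce: Dkk1 had 16, 8 and 16 counts against 8, 12 and 8 (-0.54 ± 0.48, adjusted p = 0.364), Dkk2 stayed below 0.4 CPM in each library (0.43 ± 0.32, adjusted p = 0.262), and Dkk4 had at most 4 counts.

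Sfrp4 rose 1.57-fold from 22.4 ± 2.58 to 35.2 ± 2.06 CPM (0.65 ± 0.08, adjusted p = 2.93e-05). Sfrp2 rose by 1.11-fold at 34.9 ± 1.19 and 38.8 ± 1.45 CPM (0.15 ± 0.06, adjusted p = 0.0373), a call that was lost without control replicate 2 or Dia2 replicate 2 or 3 (adjusted p = 0.122 to 0.145) and with no composition factor (adjusted p = 0.126). Wif1, a Wnt-binding inhibitor, had 28, 12 and 8 counts with control siRNA against 52, 48 and 64 with Dia2 siRNA (1.80 ± 0.35, adjusted p = 0.000762). Sfrp5 and Notum, an enzyme that removes the lipid from Wnt, were too scarce to test, with at most 6 and 12 counts.

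**Figure D4:**
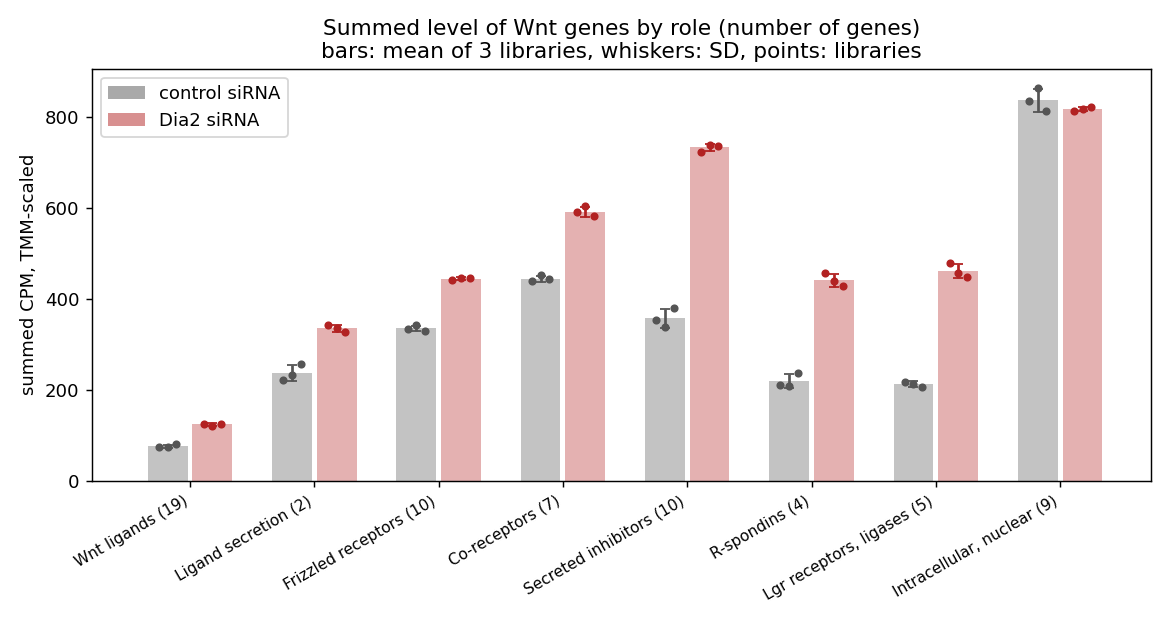
Summed CPM (y axis) of the Wnt genes of each role in the 6 libraries: bars are means of 3 libraries, whiskers the SD and points the libraries, with control siRNA in grey and Dia2 siRNA in red. The sums of the secreted inhibitors, R-spondins and Lgr and ligase genes lie about 2 times higher with Dia2 siRNA. In the control and Dia2 libraries, Rspo2 made up 215 and 436 CPM of the R-spondin means. Lgr4 made up 99.8 and 404 CPM of the Lgr and ligase means, whereas Lgr6 fell from 99.2 to 39.9 CPM. The intracellular and nuclear genes, dominated by Ctnnb1, lie at 836 and 818 CPM.

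The R-spondin branch, which raises the amount of receptor at the surface, showed a change of both ligand and receptor level. Rspo2 had 208, 205 and 232 CPM in the control and 451, 434 and 423 CPM in the Dia2 libraries (2.03-fold, log2 fold change 1.02 ± 0.06, adjusted p = 3.11e-08). It held 97.5% of the summed R-spondin RPKM in the control and 98.5% with Dia2 siRNA, at 64.3 ± 4.53 and 131 ± 4.25 RPKM. Rspo3 did not pass (0.25 ± 0.10, adjusted p = 0.0542), although its Dia2 values of 4.44 to 4.92 CPM all lay above the control values of 3.51 to 4.18 CPM, and it passed without control replicate 3 (adjusted p = 0.03). Rspo4 stayed near the floor (0.69 ± 0.49, adjusted p = 0.247), and Rspo1 had 2 counts in 1 library.

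The Lgr receptors of the R-spondins changed places. Lgr4 had 101, 95 and 104 CPM in the control and 420, 399 and 392 CPM in the Dia2 libraries, a 4.05-fold rise (2.02 ± 0.05, adjusted p = 6.29e-11). Lgr6 had 105, 105 and 88.1 CPM against 41.1, 38.9 and 39.7 CPM, a 2.49-fold fall (-1.31 ± 0.07, adjusted p = 1.6e-08). Neither gene's groups overlapped, and Lgr6 was the only Wnt gene called lower by at least 2-fold.

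Per length, Lgr6 was above Lgr4 in the control libraries, at 27.4 ± 2.63 against 19.7 ± 0.88 RPKM, and below it in the Dia2 libraries, at 11 ± 0.311 against 79.8 ± 2.86 RPKM (SD, n = 3 each). Both carry an ATGTGAA word in an annotated 3′ UTR, that of Lgr6 outside the deposited gene model, and they changed in opposite directions. Lgr5, a stem cell marker in several tissues, had 0.516, 0.536 and 0.406 CPM in the control and 2.15, 2.15 and 1.82 CPM in the Dia2 libraries (4.14-fold, 2.05 ± 0.19, adjusted p = 1.91e-06) and stayed the scarcest of the trio. Of the ligases, Znrf3 rose 1.24-fold (0.31 ± 0.07, adjusted p = 0.00188), and Rnf43, at 0 to 16 counts per library, did not pass (1.40 ± 0.63, adjusted p = 0.0741). Znrf3 and Kremen1, which both rose, are neighbours on chromosome 11, 14.7 kb apart with no other row of the table between them.

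Inside the cell, the transducers of the signal stayed near their control levels while the scarcer nuclear factors and feedback genes rose. Ctnnb1 was the most abundant Wnt gene per length, at 194 ± 4.94 and 183 ± 0.0435 RPKM. It had 698, 721 and 686 CPM in the control and 664 CPM in each Dia2 library (log2 fold change -0.08 ± 0.04, adjusted p = 0.13), and it passed as lower without control replicate 3 (-0.10, adjusted p = 0.00951). Axin1, the scaffold of the destruction complex, had 81.6, 82.2 and 72.7 CPM against 71.9, 76.3 and 76.1 CPM (-0.08 ± 0.06, adjusted p = 0.255), and it too passed as lower without control replicate 3 (-0.13, adjusted p = 0.00449). Control replicate 3 is the control library richest in Rn45s.

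Of the Tcf and Lef factors 3 rose and Tcf7l1 did not pass. Lef1 had 2.65, 2.73 and 2.47 CPM in the control and 5.74, 4.98 and 4.66 CPM in the Dia2 libraries (1.95-fold, 0.97 ± 0.11, adjusted p = 1.39e-05). Tcf7 rose 1.97-fold from 1.14 ± 0.0963 to 2.23 ± 0.161 CPM, and Tcf7l2 1.58-fold from 20.3 ± 0.563 to 32 ± 1.41 CPM. Tcf7l1, the member of the family best known as a repressor and the most abundant of the 4 at 10 ± 1.18 and 11 ± 0.93 RPKM, had 27.3, 31.4 and 24.9 CPM against 28.1, 30.3 and 33.3 CPM (0.13 ± 0.09, adjusted p = 0.213), and it passed as higher without control replicate 2 (0.22, adjusted p = 0.0471).

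Axin2, a feedback inhibitor often used as a readout of beta-catenin activity, was very scarce. It had 10 counts in each control library and 42, 42 and 60 in the Dia2 libraries, or 0.089, 0.122 and 0.145 CPM against 0.558, 0.437 and 0.641 CPM (4.68-fold, 2.23 ± 0.36, adjusted p = 0.000182). Its control values were at 1 to 2 times the floor, so the size of the fold is loosely set. Nkd1, which binds Dishevelled and dampens the signal, had 0.694, 0.755 and 0.58 CPM in the control and 1.44, 1.65 and 1.77 CPM in the Dia2 libraries (2.38-fold, 1.25 ± 0.19, adjusted p = 0.000117). Nkd2, its relative, had 3.77, 3.14 and 2.9 CPM against 6.01, 6.81 and 7.44 CPM (2.05-fold, 1.04 ± 0.12, adjusted p = 1.29e-05). For all 3 genes every Dia2 value lay above every control value.

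Axin2, Lef1, Tcf7, Nkd1, Nkd2, Notum, Znrf3, Rnf43, Lgr5 and Dkk1 are Wnt pathway genes that beta-catenin signalling is itself known to induce in many tissues. Of these 10, grouped after their counts had been seen, 7 rose, none fell, Rnf43 and Dkk1 did not pass and Notum was not tested. The 7 were 77.8% of the 9 tested. Called higher were 62.7% of the 51 tested Wnt genes and 29.3% of all genes tested. Axin2 shares 209, Lef1 1208, Ctnnb1 759 and Tcf7l1 179 exon bases with opposite-strand genes of the GENCODE annotation. Such overlaps were also found for Fzd5 (1233 bases), Rspo3 (404), Wnt11 (364), Wnt5a (358), Sfrp2 (347), Wnt7b (324), Fzd6 (152) and the untested Notum. Without a stated strand setting the reads of these pairs cannot be told apart.

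**Figure D5:**
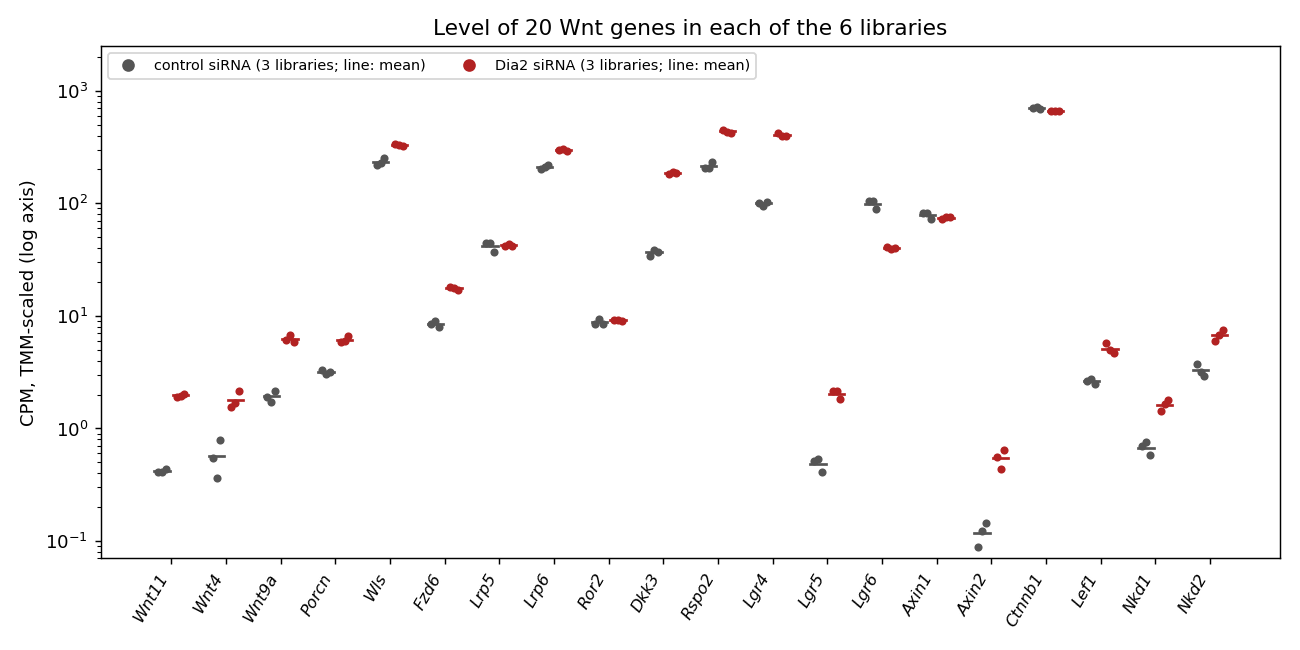
CPM (y axis, log scale) of 20 Wnt genes in each of the 6 libraries, with control siRNA in grey, Dia2 siRNA in red and lines at the means of 3 libraries. The groups stand apart for all of them except Lrp5, Ror2 and Axin1, and Lgr6 and Ctnnb1 are the genes whose Dia2 values all lie below the control values.

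Genes of the pathway outside this set moved in both directions. Of 72 such genes, among them the destruction complex, Dishevelled proteins, co-activators, co-repressors and planar polarity proteins, 66 were tested, and 29 rose, 12 fell and 25 did not pass. The shares were 43.9% higher and 18.2% lower, against 29.3% and 29.9% of all genes tested. The median log2 fold change of the 66 was 0.11. The largest called changes were those of Lypd6, Apc2, Tle4, Pygo1, Shisa2 and Daam2. Apc2, a relative of the destruction complex gene Apc, rose 3.68-fold from 1.46 ± 0.139 to 5.37 ± 0.354 CPM, whereas Apc itself did not pass at 154 and 157 CPM. Tle4, a Groucho co-repressor of Tcf factors, fell 2.77-fold from 7.99 ± 0.365 to 2.88 ± 0.0403 CPM (-1.47 ± 0.09, adjusted p = 6.11e-08).

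Shisa2, which retains Frizzled inside the cell, rose from 7.88 ± 0.861 to 15.8 ± 0.621 CPM, and Pygo1, a beta-catenin co-activator, 2.07-fold. Daam2, a formin that binds Dishevelled, rose 1.98-fold from 36.9 ± 2.16 to 72.9 ± 7.03 CPM, and the membrane-anchored Lypd6 was at 4 to 6 counts with control siRNA against 12 to 32 with Dia2 siRNA.

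Often used beta-catenin targets outside the set were higher more often than lower. Of 33 genes 28 were tested, and 16 rose (57.1%), 6 fell (21.4%) and 6 did not pass, with a median log2 fold change of 0.27. Among all genes tested 29.3% were called higher and 29.9% lower. The list is mixed, and several of its genes answer to other pathways as well. Ccn5, a matricellular gene listed as Wisp2, Fgf18, Tnfrsf19, Bmp4, Tnfrsf11b and Trp63 had the largest called changes, all upward. The 6 that fell were Nrcam, Fosl1, Id2, Myc, Irs1 and Plaur, with log2 fold changes from -1.11 (Nrcam) to -0.30 (Plaur). Tnfrsf11b, which encodes the RANKL decoy osteoprotegerin, rose 2.62-fold from 23.2 ± 0.665 to 60.7 ± 2.64 CPM (1.39 ± 0.06, adjusted p = 2.78e-09), and Trp63 rose 2.25-fold from 6.33 ± 0.728 to 14.2 ± 0.34 CPM. Fgf18 and Tnfrsf19 were below 0.5 CPM in all libraries, and the call of Fgf18 was lost without control replicate 1 or 3 (adjusted p = 0.128 and 0.0589).

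The promoters of the Wnt genes were searched for CTTTGA, the core of the Tcf and Lef binding motif, on both strands. RefSeq promoter windows (GRCm38.p6, 250 bases before to 50 after a start) were at hand for 44 of the 66 genes, in 54 windows. The motif was in 6 of these (11.1%) and in 16% of 32851 windows of all genes, and in 4 of 28 windows (14.3%) of Wnt genes that rose: Fzd1, Lef1, Wnt11 and Wnt5b. The windows of Lef1, Wnt11 and Wnt5b are not placed at the gene start of the deposited table, whereas that of Fzd1 does. It is shown as the example of a riser with the motif, which stands in capitals as its reverse complement (chr5:4758167-4758466, minus strand).

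Fzd1: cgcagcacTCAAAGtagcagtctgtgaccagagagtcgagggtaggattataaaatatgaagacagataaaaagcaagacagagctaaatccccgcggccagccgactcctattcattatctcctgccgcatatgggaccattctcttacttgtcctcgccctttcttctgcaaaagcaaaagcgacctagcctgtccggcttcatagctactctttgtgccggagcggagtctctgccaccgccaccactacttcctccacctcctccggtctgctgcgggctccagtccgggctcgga

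A match of these letters is a description of the window, not a binding site.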

How the data were processed

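RNA-seq of 6 libraries was analysed from 1 deposited table. Its columns are, per the file headers, raw counts and RPKM for each library, with each gene's coding length. Named without a role in the submitters' processing notes are HTSeq, TopHat2 2.0.6 and bcl2fastq, and the builds hg19 and GRCh37 (human); the deposited rows carry mouse symbols, and 99.2% of 23084 rows with a RefSeq symbol, and all 66 Wnt genes, overlapped that gene in GRCm38. The sources used here do not give the annotation, the strand setting or the treatment of multi-mapped reads. RPKM as deposited is a count over coding length and a single total of its library, and it served only as a check; RPKM printed here was recomputed from the counts with TMM factors.

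Genes were filtered with filterByExpr (minimum count 10, minimum total 15), scaled with TMM and compared between groups taken from the titles with edgeR 4.0.16 (quasi-likelihood, robust; R 4.3.3), Benjamini-Hochberg adjustment over all genes and a threshold of 0.05. The procedure was tested on simulated counts with equal relative spread for all genes and far fewer changed genes than were called here. That test therefore does not cover the conditions of these data. SE is the absolute log2 fold change divided by the square root of F. Replicates of a group differed beyond sampling noise (chi-square per degree of freedom 7.04 to 90.7). Alternatives were DESeq2 1.42.0, limma-voom (limma 3.58.1), other scalings and filters, a block for the replicate number and leaving out 1 library at a time; halved counts, omission of Rn45s and Lars2, and of control replicate 3 with Dia2 replicate 1 (the 2 libraries with most Rn45s), were chosen after seeing the data. The Wnt genes, the gene lists, the markers and the 7-base words were chosen with earlier results of these data known. Values per library are given for Wnt genes past the threshold with at least 2-fold change and a mean of at least 1 CPM in the higher group, for 9 genes whatever their p (Ctnnb1, Lrp5, Lrp6, Porcn, Wls, Axin1, Axin2, Ror2 and Lef1) and for the most abundant of each family; other library values were added to describe a gene. From each of the 2 other lists the 6 largest called changes are named. Apc, Prickle1 and the 6 beta-catenin targets that fell were named after their values were seen.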

Additional observations from a re-analysis of the deposited data

How the results depend on the processing

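Under 17 alternatives the number of Wnt genes called higher ranged from 30 to 35 and called lower from 2 to 4; with 1 library left out the ranges were 31 to 34 and 2 to 4. Of the 35 calls 32 were kept under every alternative that tested the gene; Fzd3, Sfrp2 and Wnt5b lost theirs under at least 1. Another 8 genes gained a call under at least 1: Rspo3, Kremen2, Ror1, Axin1, Ctnnb1 and Tcf7l1 with a library left out, Rspo3, Kremen2 and Ror1 also with upper-quartile factors (adjusted p = 0.033, 0.0444 and 0.0474), and Rspo3, Rnf43 and Wnt7b with limma-voom (adjusted p = 0.0441, 0.0315 and 0.0424). Requiring a mean of 1 CPM removed Axin2, Wif1 and Wnt8b from the test. The direction of Lrp5 turned without control replicate 3 (-0.060; -0.060 to 0.069 with 1 library left out) and without the 2 libraries richest in Rn45s, 1 per group (-0.051). That of Wnt2b turned without control replicate 3 (0.026), without Dia2 replicate 1 (0.191; -0.594 to 0.191 with 1 library left out) and without those 2 libraries (0.318); neither gene passed in any of these, and the cause was not tested. With 1 library left out, the other pathway genes were called higher in 26 to 29 cases and lower in 8 to 16, the beta-catenin targets in 13 to 16 and 6 to 8. The median of all genes moved by less than 0.1 (log2) under each scaling.

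Same-numbered libraries did not deviate together (correlations of deviations from the group means of -0.102, -0.024 and -0.239 over 11664 genes), so the numbers were not taken as pairs. With the replicate block 31 Wnt genes were higher and 2 lower, against 32 and 3 without it, and Fzd3 (adjusted p = 0.0506) and Sfrp2 (adjusted p = 0.0816) lost their calls. Depth limits statements on the 15 genes not tested, none with more than 14 counts in a library.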

Other observations

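Prickle1, a planar cell polarity gene of the pathway, had 18.4, 17.3 and 107 CPM in control replicates 1, 2 and 3 and 7.95, 8.62 and 7.86 CPM in the Dia2 replicates. All Dia2 values lay below all control values, but the gene did not pass (log2 fold change -2.54 ± 0.95, adjusted p = 0.0849), and without control replicate 3 it passed at -1.14 (adjusted p = 1.87e-11). DESeq2 called it with all libraries (-2.55, adjusted p = 0.00529). Among the other polarity genes, Vangl1 rose from 22.7 to 34 CPM and Prickle3 from 10.1 to 15.7 CPM, Prickle2 fell from 10.8 to 8.86 CPM, and Vangl2 (7.04 and 7.34 CPM) and the 3 Celsr genes, with group means below 0.4 CPM, did not pass.

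The tankyrases, which mark Axin for destruction, moved in opposite directions: Tnks2 fell 1.95-fold from 299 ± 20 to 153 ± 3.41 CPM (-0.96 ± 0.05, adjusted p = 3.17e-08) and Tnks rose from 115 to 134 CPM. The genes of the Groucho family were split as well, with Tle4 and Tle3 lower and Tle1, Tle2 and Tle5 (listed as Aes) higher. The genes of this section were named after their values had been seen.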
